A study of Mus musculus with 2 samples.

Results

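Cathepsins are proteases of the lysosome, and transcripts of 10 cathepsin genes were followed here in implantation sites, each of them a stretch of pregnant uterus with an embryo and the maternal tissue that surrounds it. The genes were Ctsa, Ctsb, Ctsc, Ctsd, Ctse, Ctsh, Ctsk, Ctsl, Ctss and Ctsz. They were found by their symbol in the annotation of an Affymetrix mouse array, which gave 16 probe sets (sets of short probes read out as 1 signal) of 22626 and 10 genes of 12393. Sites were dissected on day 8 of pregnancy from females aged 4 months, on a C57Bl/6J X OLA129 background. There was 1 array for control females and 1 for Cbs null females, which are homozygous for deficiency of cystathionine beta-synthase. This enzyme makes cystathionine from homocysteine and serine. The part of Cbs that was deleted, the genotype of the embryos and any pooling of animals or sites are not stated in the labels. With 1 array per genotype no test between genotypes was possible, and each difference below describes these arrays alone. RNA came from whole sites, so more cells of a type and more RNA per cell cannot be told apart.

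Most cathepsins are made as inactive precursors, carried to endosomes and lysosomes, and activated there by acid pH and cleavage. The cysteine members are held in check by cystatins and related inhibitors when they leave the lysosome. In the mouse implantation site, cathepsins B and L are known from the decidua (the transformed uterine stroma) and from the trophoblast that invades it, where uptake and breakdown of maternal protein feed the early embryo.

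All 10 genes were measured, meaning that the mean signal of the brightest probe set reached 70.5, the median over all probe sets. Each of the 10 reached that limit on both arrays. Signals are given in arbitrary units, and log2 ratios are Cbs null over control, taken from the brightest probe set of a gene unless another is named. All 10 genes had a log2 ratio above 0, where 55% of the 7079 measured genes on the array did. The members were chosen with earlier results of these data known, so this count only describes them. Of 4 other measured cathepsins and relatives, given below, 3 had a ratio below 0, as did 44.9% of all measured genes. With measured genes split by mean signal into 3 equal groups, 9 of the 10 were in the brightest group, of which 49.6% lay above 0. When each array was divided by its median the count was 9, as Ctsz moved to -0.01, and the share of all measured genes above 0 was 43.3%. The median over the 10 was 0.20, beside 0.02 for all measured genes and -0.00 for the brightest group. Most of these ratios were small. Only Ctse was at least 1.5-fold higher, and none was 1.5-fold lower, where 2.46% of measured genes passed 1.5-fold upwards and 1.33% downwards. The other 9 genes lay between 0.04 and 0.51, and with Ctse left out the median was 0.19. The middle 95% of all measured genes ran from -0.48 to 0.58, and that of the brightest group from -0.41 to 0.46.

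**Figure D1:**
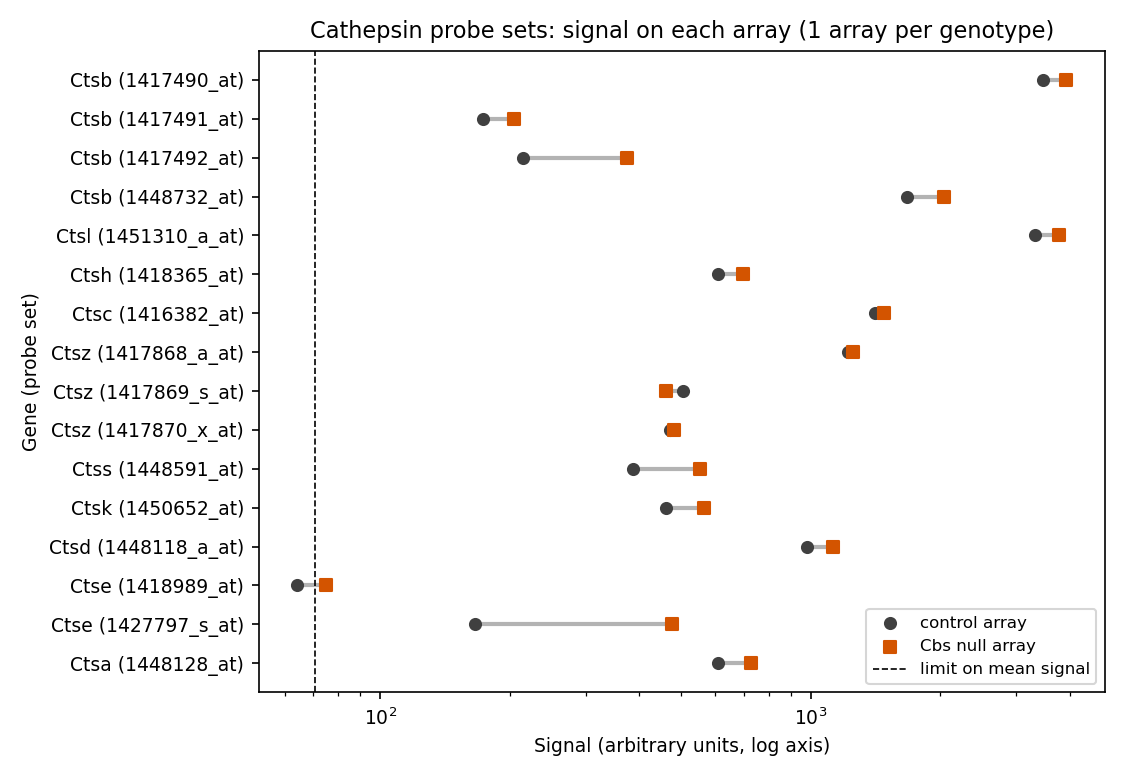
Signal of each of the 16 cathepsin probe sets (rows) on the control array (circles) and the Cbs null array (squares), in arbitrary units on a log axis, with a dashed line at the limit of 70.5 on mean signal. The square lies right of the circle in each row except Ctsz 1417869_s_at, and the widest gap is that of Ctse 1427797_s_at, from 165.7 to 475.2.

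Promoters of 3 members are shown because they hold the motifs searched, which were chosen after the promoter sequences had been seen. The RefSeq table for GRCm38.p6 held promoters of 7 members in 8 windows of 300 bases, from 250 bases before a transcript start to 50 after it. Ctsb, Ctse and Ctsh were not in it. The 250 bases before the start are printed 5′ to 3′ on the strand of the gene, with each motif match in capitals. For Ctsa the second of its windows is given.
Ctsa, chr2:164833523-164833772, plus strand: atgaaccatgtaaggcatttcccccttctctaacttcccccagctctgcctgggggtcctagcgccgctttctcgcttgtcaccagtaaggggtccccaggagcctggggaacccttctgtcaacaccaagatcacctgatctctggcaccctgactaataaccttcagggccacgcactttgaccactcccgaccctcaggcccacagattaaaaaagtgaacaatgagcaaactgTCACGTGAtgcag
Ctsd, chr7:142387828-142388077, minus strand: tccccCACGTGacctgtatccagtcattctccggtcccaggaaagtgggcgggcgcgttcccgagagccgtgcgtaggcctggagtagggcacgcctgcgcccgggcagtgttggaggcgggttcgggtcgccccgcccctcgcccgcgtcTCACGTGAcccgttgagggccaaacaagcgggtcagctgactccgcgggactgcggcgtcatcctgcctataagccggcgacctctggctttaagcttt
Ctsl, chr13:64370521-64370770, minus strand: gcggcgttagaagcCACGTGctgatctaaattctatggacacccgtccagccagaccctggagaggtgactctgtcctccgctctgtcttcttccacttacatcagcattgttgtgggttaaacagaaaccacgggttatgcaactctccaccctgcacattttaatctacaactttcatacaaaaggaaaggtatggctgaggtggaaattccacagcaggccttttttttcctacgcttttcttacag

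The E-box core CACGTG, which reads the same on both strands and is the core of the sites bound by TFEB, a regulator of lysosomal genes, was in the windows of 3 of the 7 members, Ctsa, Ctsd and Ctsl. It was present in 7.15% of all 32851 promoter windows. The longer TCACGTGA, which contains that core and also reads the same on both strands, was in the windows of Ctsa and Ctsd, and in 0.974% of all windows. Counted from the first base after the printed stretch as 0, it lay at -13 to -6 in Ctsa, and once more in the bases after the start, which are not printed. In Ctsd it lay at -99 to -92, with another core further upstream. A match is a description of these letters and not evidence of binding. The members with the E-box core had log2 ratios of 0.25 (Ctsa), 0.21 (Ctsd) and 0.19 (Ctsl), and the members with a window but no core had 0.04 (Ctsz), 0.07 (Ctsc), 0.29 (Ctsk) and 0.51 (Ctss).

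Among the 7 cysteine cathepsins, the papain-like enzymes, the median log2 ratio was 0.19 and the range 0.04 to 0.51. Ctsb encodes cathepsin B, which cuts within proteins and also removes dipeptides from their carboxyl end. Its brightest probe set, 1417490_at, read 3468.4 on the control array and 3923.6 on the Cbs null array, a log2 ratio of 0.18. Probe set 1448732_at read 1677.8 and 2043.1, with a ratio of 0.28. Probe set 1417491_at read 173.8 and 204.4, with a ratio of 0.23. The fourth stood apart from these: 1417492_at read 214.5 and 374.0, which is 1.74-fold higher in Cbs null, with a ratio of 0.80. All 4 probe sets of Ctsb therefore read higher on the Cbs null array, and they differed by up to 0.62 in log2 ratio. Among the 147 genes with 4 measured probe sets, that range had a median of 0.34 and was smaller than in Ctsb for 81.0%. At the level of probe sets, 2 of the 15 measured cathepsin probe sets were at least 1.5-fold higher (this one and 1 of Ctse), beside 2.59% of the 10406 measured probe sets with a single gene.

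Ctsl encodes cathepsin L, an endopeptidase of lysosomes and a secreted product of invasive cells. It read 3314.9 in control and 3778.0 in Cbs null, a log2 ratio of 0.19, in a single probe set, which can match several transcripts of the gene. Ctsh, an aminopeptidase, read 609.1 and 695.8, also 0.19. These values for Ctsl and Ctsh were nearly equal to that of the brightest Ctsb probe set. Ctsc encodes dipeptidyl peptidase 1, which activates the granule serine proteases of leukocytes, granzymes among them. It differed little, with 1409.2 on the control array, 1482.8 on the Cbs null array and a log2 ratio of 0.07. Over the same arrays 7 of 8 measured markers of uterine natural killer cells were at least 1.5-fold lower (1.33% of all measured genes were), with a median of -0.91 and a sum of 10462.8 on the control array and 4637.1 on the Cbs null array. Of these 7, Il2rb, at 110.5 and 61.1, passed the limit on mean signal only through its control value. The other measured probe set of Il2rb read 79.2 and 63.3 (-0.32). Klrk1, the remaining measured marker, read 73.9 and 76.5 (0.05), and Ncr1, under the limit, read 56.4 and 67.5 (0.26). The granzymes Gzmc, Gzmd and Gzma, which Ctsc is known to process as a class, had log2 ratios of -1.46, -1.35 and -1.16. Perforin, Prf1, had -0.96, while its probe set under the limit read 37.0 and 36.2 (-0.03). Gzmc and Gzmd have near-identical relatives, so the share of each gene in these signals is uncertain. The part of these cells in the Ctsc signal was not tested.

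Ctsz encodes cathepsin Z, a carboxypeptidase that also binds integrins. Its 3 probe sets did not share a direction. Probe set 1417868_a_at read 1218.3 in control and 1253.0 in Cbs null (log2 ratio 0.04), 1417870_x_at read 470.2 and 482.0 (0.04), and 1417869_s_at read 504.2 and 461.2 (-0.13). This last was the only one of the 16 probe sets to read lower on the Cbs null array. Both positive values turned to -0.01 and -0.02 when each array was divided by its median, so Ctsz had no stable direction.

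Ctss and Ctsk are neighbours in the GRCm38.p6 gene table, with no protein-coding gene between them. By brightest probe set they had the largest ratios of the cysteine group, while the dimmer Ctsb probe set 1417492_at was higher, at 0.80. Any link between their position and their ratios was not tested. Ctss encodes cathepsin S, which cuts the invariant chain Cd74 from MHC class II molecules in antigen presenting cells. It read 387.4 on the control array and 553.2 on the Cbs null array, a 1.43-fold difference and a log2 ratio of 0.51, above 96.5% of measured genes. Ctsk encodes the collagen-degrading cathepsin of osteoclasts and of some fibroblasts. It read 462.4 and 564.2, 1.22-fold higher, with a log2 ratio of 0.29. Each of the pair rested on 1 probe set. Of the osteoclast markers, Calcr read 4.1 and 6.0 and Oscar 3.8 and 16.7, close to or under the floor of 14.3 to which dim values were raised, while Acp5 read 82.1 and 96.2. Acp5, the 1 measured marker of this list, had a log2 ratio of 0.23. The part of osteoclast-like cells in the Ctsk signal was not tested.

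Markers of antigen presenting cells differed in the same direction as Ctss. All 5 measured genes of MHC class II antigen presentation were above 0 (55% of all measured genes were), with a median log2 ratio of 0.52 and a summed signal of 3195.9 in control and 4710.6 in Cbs null. Cd74, the substrate of cathepsin S, read 926.3 and 1527.7, 1.65-fold higher, and H2-Ab1, a class II chain, read 266.3 and 523.4, 1.97-fold higher. Without probe sets whose suffix marks possible matches to several transcripts the median of this list was 0.27. Of 10 measured macrophage markers 8 were above 0 (55% of all measured genes were), with a median of 0.33. The summed signal of these 10 was 4624 in control and 5920.6 in Cbs null. Cd68, a glycoprotein of macrophage lysosomes, read 138.0 and 246.1, 1.78-fold higher, and it was the only macrophage marker past 1.5-fold. Adgre1, the F4/80 antigen, read 177.0 and 176.4, and Fcgr3 went the other way, at 242.4 and 209.1 (-0.21). Under the limit on mean signal, Aif1 had 0.49, Itgam 0.07 and Cx3cr1 -0.13. No macrophage marker was at or under the floor on both arrays. The 3 general leukocyte markers differed little, with a median of -0.08, and Ptprc read 545.8 and 521.8. The part of macrophages and antigen presenting cells in the cathepsin values was not tested.

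**Figure D2:**
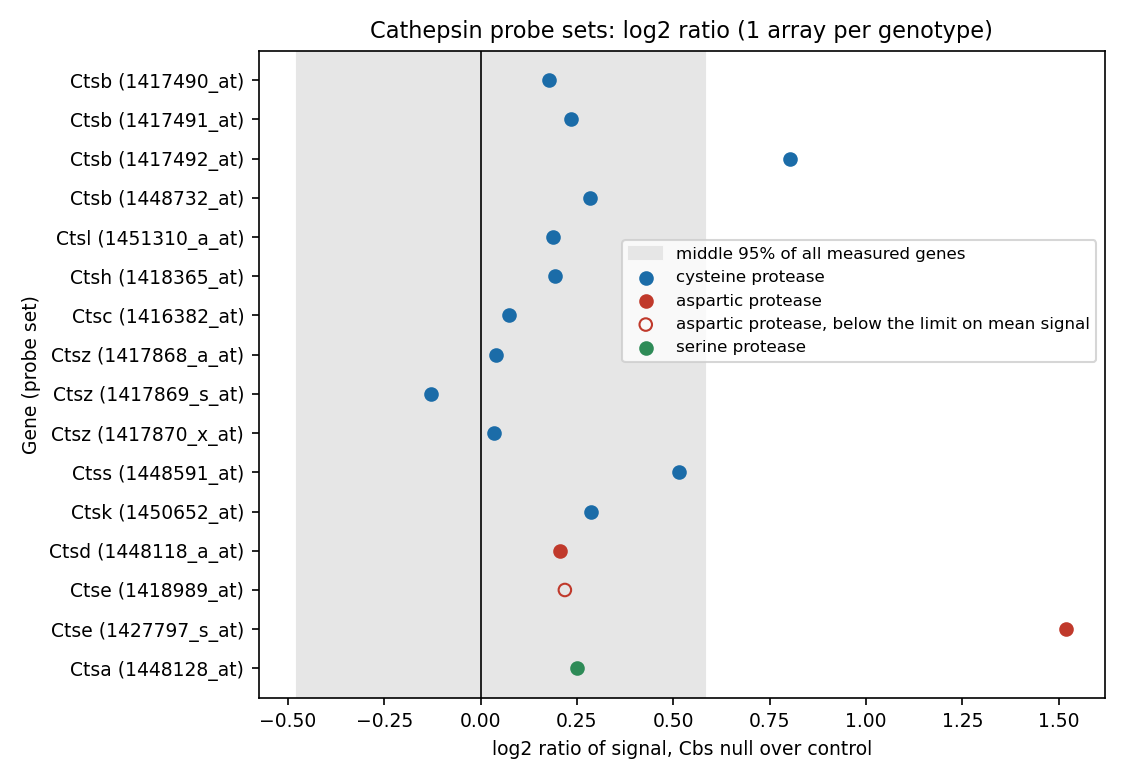
log2 ratio of signal, Cbs null over control, for each of the 16 cathepsin probe sets (rows), coloured by catalytic class, with the middle 95% of all measured genes shaded (-0.48 to 0.58). Only Ctse 1427797_s_at (1.52) and Ctsb 1417492_at (0.80) lie right of the shading, and the open circle is the Ctse probe set below the limit on mean signal.

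The aspartic cathepsins were Ctsd and Ctse, whose ratios differed widely. Ctsd encodes cathepsin D, the general aspartic protease of lysosomes. It read 979.5 in control and 1129.2 in Cbs null, a log2 ratio of 0.21, in 1 probe set. Ctse encodes cathepsin E, an endosomal aspartic protease known from the stomach, other mucosal epithelia and immune cells. Its probe set 1427797_s_at read 165.7 on the control array and 475.2 on the Cbs null array, which is 2.87-fold higher. That log2 ratio of 1.52 was the highest of the cathepsins, above 99.8% of measured genes, and it was among the 0.622% of measured genes that passed 2-fold upwards. The second probe set of Ctse, 1418989_at, showed no such gap. It read 64.2 and 74.7, just under the limit on mean signal, with a log2 ratio of 0.22. The suffix of the brighter probe set marks probes that can match several transcripts, and which of them gave the signal is not known here. Among the 2442 genes with 2 probe sets above the 25th percentile of mean signal, the difference between them had a median of 0.24 and was smaller than the 1.30 of Ctse for 99.0%. The call for Ctse therefore rests on 1 probe set.

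Uterine epithelium markers, given because cathepsin E is known from epithelia, differed in the same direction as the brighter Ctse probe set. Of 10 measured markers 9 were above 0 (55% of all measured genes were) and 5 were at least 1.5-fold higher (2.46%), with a median log2 ratio of 0.59, and none was under the floor. Their signals summed to 6181.9 on the control array and 18773.3 on the Cbs null array, and without Prss28 and Prss29 to 3042.9 and 4460.9, with a median of 0.50. The serine proteinases Prss28 and Prss29 of uterine glands read 918.9 and 6692.4, and 2220.1 and 7620.0. Lcn2 and Ltf, secreted defence proteins, were 2.06-fold and 1.91-fold higher. Among the keratins, Krt18 had a log2 ratio of 0.64, Krt8 0.55 and Krt19 0.25, and Epcam had 0.39. Cdh1, the epithelial cadherin, read 293.8 and 290.3. This list, like the others, was chosen with earlier results of these data known, so its counts only describe these arrays. The part of epithelium in the Ctse signal was not tested.

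Ctsa was the 1 serine carboxypeptidase among the members. It encodes cathepsin A, or protective protein, which keeps beta-galactosidase and neuraminidase 1 stable in a lysosomal complex. It read 609.5 in control and 725.2 in Cbs null, a log2 ratio of 0.25, in 1 probe set. Its partners, picked after their values were seen, had log2 ratios of 0.20 (Glb1, beta-galactosidase) and 0.08 (Neu1). By brightest probe set, the transcripts of Ctsa, Glb1 and Neu1 lay slightly above 0 and within the middle 95% of measured genes. Other probe sets of Neu1, under the limit on mean signal, had -0.55 and 0.17.

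**Figure D3:**
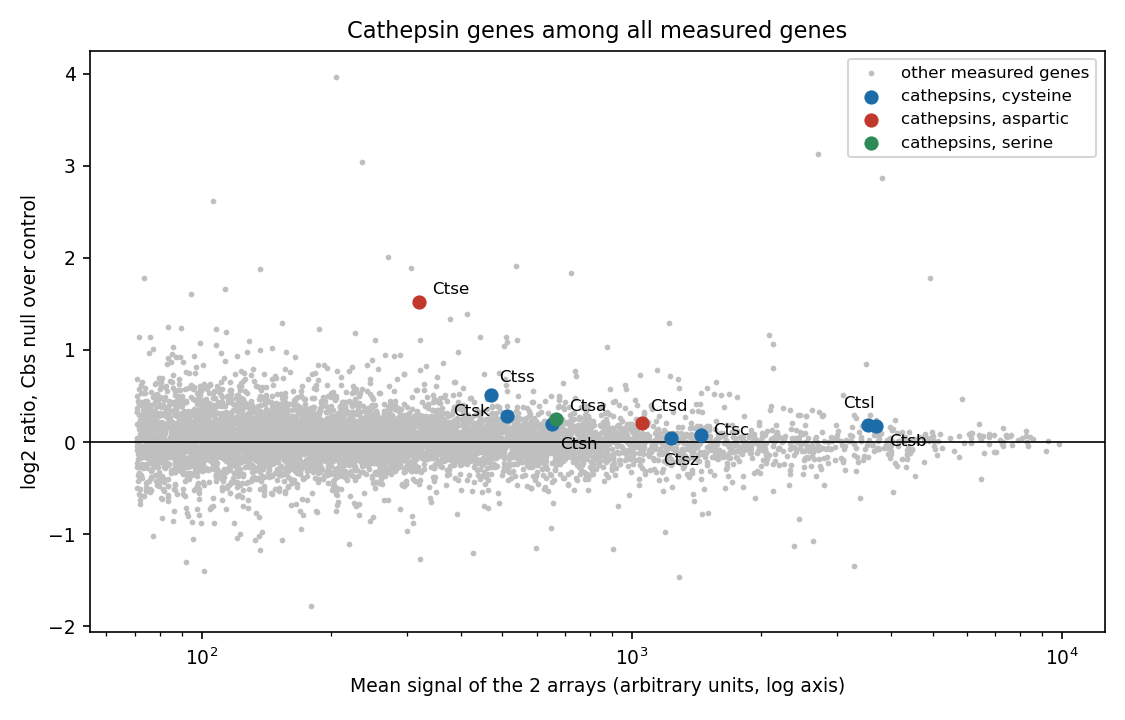
log2 ratio against the mean signal of both arrays (log axis) for the 7079 measured genes, with the 10 cathepsins coloured by catalytic class. All of them except Ctse lie at or below 0.51 and inside the cloud of other genes. Ctsz and Ctsc are near its centre and the others toward its upper side. Ctse at 1.52 lies above 99.8% of measured genes.

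Other cathepsins and their relatives had ratios of both signs. Of 4 measured genes 3 were below 0 (44.9% of all measured genes were) and 1, Ctsf, was above, with a median of -0.41. Ctsg, the serine protease cathepsin G of neutrophil and mast cell granules, read 183.0 on the control array and 93.1 on the Cbs null array, a 1.97-fold difference. Ctsw, a cathepsin of natural killer and cytotoxic T cells, read 150.1 and 121.8 (-0.30). Tinagl1, a secreted relative of cathepsin B without protease activity, read 751.3 and 521.4 (-0.53), and Ctsf, a lysosomal cysteine cathepsin, read 71.6 and 102.1 (0.51). Ctsw, Tinagl1 and Ctsf are given here to account for all 4, and were chosen after their values were seen. The 8 placental cathepsins, rodent relatives of cathepsin L made by trophoblast, gave little signal. Of these only Ctsj reached the limit, at 89.5 and 88.3, and 4 were at or under the floor on both arrays. Cts3 read 10.6 and 25 and Ctsr 11.7 and 24.0, too dim for a fold. Among the 4 measured trophoblast markers, 3 were at least 1.5-fold higher (2.46% of all measured genes were), led by Tpbpa at 228.1 and 598.7. Eomes, the remaining marker, went the other way, at 145.7 and 97.8 (-0.58). The others of the 3 higher markers, Prl2b1 and Prl4a1, passed the limit only through their Cbs null value. Of the yolk sac endoderm markers 3 were measured, and Afp and Ttr passed it in the same way, at 24.7 and 384.6 for Afp and 33.0 and 113.6 for Ttr, while Rbp4 read 522.0 and 523.2.

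Inhibitors of cathepsins had small ratios of both signs. Of 8 measured genes, 6 were below 0, where 44.9% of all measured genes lay, and 2 above, with a median log2 ratio of -0.16, and none was 1.5-fold apart. Ctla2a, an inhibitor of cathepsin L-like enzymes that resembles their propeptide, read 7268.0 in control and 6750.4 in Cbs null (-0.11). Cst3, cystatin C, the main secreted inhibitor of cysteine cathepsins, went the other way, at 2413.4 and 3032.7, 1.26-fold higher with a log2 ratio of 0.33. The lowest of the list was Kng1, kininogen, at 99.9 and 67.0 (-0.58), picked after its value was seen. Kng1 and Cst7, a cystatin of leukocytes that read 95.4 and 67.2, passed the limit on mean signal only through their control value.

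The wider lysosome gave list medians near 0, with ranges that took in the cathepsin median of 0.20. Of 30 measured lysosomal enzymes and their cofactors 20 were above 0, which is 66.7% beside 55% of all measured genes, with a median of 0.09 and a range of -0.29 to 0.43. None was 1.5-fold apart by its brightest probe set. A dimmer measured probe set of Lipa read 112.8 and 192.7 (0.77), past 1.5-fold, while its brightest had 0.22. The dimmer measured probe set of Gm2a had -0.46, where its brightest had 0.40. The brightest genes of the list were Npc2, a cholesterol carrier, at 3389.9 and 3427.8 (0.02), and Psap, the precursor of the saposins, at 2682.6 and 2336.4 (-0.20). By brightest probe set the highest was Lgmn, legumain, which processes several cathepsins to their mature form. It read 292.4 and 395.2 (0.43) and was picked after its value was seen. Of 29 measured genes of the lysosomal membrane, proton pump and sorting receptors, 12 were above 0, with a median of -0.03 and a range of -0.51 to 0.46. That median was 0.12 without probe sets whose suffix marks possible matches to several transcripts. None of the 29 was 1.5-fold apart. The membrane proteins Laptm4a and Lamp2 had -0.06 and -0.10. The 5 measured genes of the TFEB family and its regulators had a median of -0.02, with Mitf, a transcription factor of that family, at 440.4 and 434.2, and Mtor, the kinase that restrains TFEB, at 204.6 and 191.5.

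**Figure D4:**
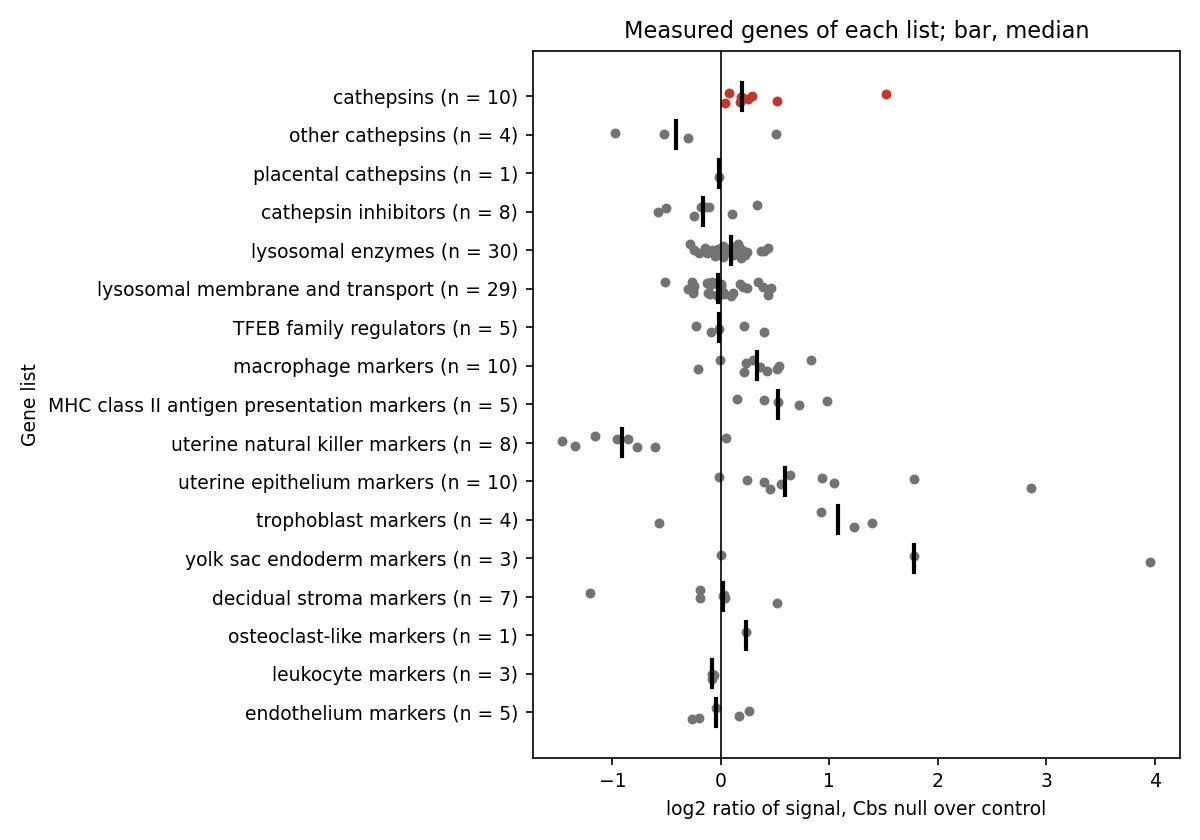
log2 ratio, Cbs null over control, of each measured gene (points, with vertical scatter only for display) in the cathepsins and in 16 lists of related genes and cell type markers (rows, n in brackets), with the median as a bar. The 10 member cathepsins centre at 0.20, other cathepsins and relatives at -0.41, inhibitors at -0.16 and lysosomal enzymes at 0.09. Natural killer markers centre at -0.91 and uterine epithelium markers at 0.59.

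As checks of the labels and arrays, Cbs itself read 30.3 and 29.9 in control and 23.8 and 22.3 in Cbs null in its 2 probe sets, all under the limit, so its signal does not check the genotype. Of 8 markers of decidual stroma 7 were measured, with a median log2 ratio of 0.02, and the decidual prolactin Prl8a2 read 2542.7 and 3633.6. These markers of the labelled tissue were thus present on both arrays. Bmp2, a decidual growth factor, was 2.31-fold lower, the 1 marker of this list past 1.5-fold. The 5 endothelial markers had a median of -0.04, with Cd34 at -0.20 and Kdr at -0.04. Both arrays had a 2% trimmed mean signal of 200.1 over all probe sets.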

How the data were processed

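Total RNA of dissected sites was labelled from 2 microg and hybridised to Affymetrix arrays, per the labels' protocols. The authors deposited 1 linear intensity for each probe set on each array, from GCOS 1.4 according to the submitters' processing notes. For its algorithm, its detection calls and the build behind the probe sets, nothing is given in the sources used here. Equal trimmed means point to a common scaling target, so no further scaling was done.

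Of 22690 probe sets, 64 controls were set aside. A single symbol was given for 20380 of the 22626 left, several for 691 and none for 1555. Of the single symbols, 20351 matched a RefSeq table of GRCm38.p6 by gene identifier. Dim values were raised to 14.3 (the floor, at the 25th percentile), and 11315 probe sets with a mean signal of at least 70.5 were kept. The members and lists were chosen with earlier results of these data known. Named genes are all members, and from each list up to 4 measured genes past 1.5-fold in either direction or, if there are none, the 2 brightest. All other genes named were chosen after their values were seen. The number of arrays limits the precision. As a yardstick within the arrays, the 2 brightest probe sets of 2284 genes differed with an SD of 0.30, or 0.21 per probe set. Scripts in Python 3.11 were tested on simulated data.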

Additional observations from a re-analysis of the deposited data

How the results depend on the processing

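Alternatives covered normalization, floor or pseudocount, filter and choice of probe set; a lowess trend on signal (span 0.3) and leaving out Ctse, or Prss28 and Prss29 from the epithelium list, were added after seeing the data. A value was said to move when it shifted by over 0.21, the SD per probe set. The median of the cathepsins stayed between 0.15 and 0.23 over 12 alternatives. Of 77 gene values 1 moved, Ctse, to 0.22 without probe sets with suffix _s_at, _x_at or _a_at, which left 6 members, all above 0, and 0 of them 1.5-fold higher. Of the genes only Ctsz changed sign. Of 173 list medians 12 moved and 9 changed sign: the decidual list, at 0.02, under 6 alternatives (-0.08 to -0.01), the placental list under 1 (given below), and, without those suffixes, the endothelial list (0.06) and the lysosomal membrane list (0.12). The yolk sac list stood at 1.52 when the floor was the 40th percentile and 1.403 with a pseudocount of 16. Filtering at the 25th percentile, at the 75th and not at all gave it 0.86, 0.0033 and 0.33, and leaving out those suffixes gave 0.0033. With these 3 filter settings the trophoblast list had 0.46, 1.39 and 0. The placental cathepsins had 0.42 with the 25th percentile filter, the natural killer list had -1.16 with that at the 75th, and the MHC class II list had 0.27 without those suffixes. Genes at least 1.5-fold higher numbered 498, 61 and 506 under the 3 filter settings, and those lower 357, 36 and 365, because more or fewer dim genes were counted. Signal over background limits the dimmer Ctse probe set and the placental cathepsins. No paired analysis was possible because each group has 1 array, and for the same reason no replicate could be left out.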
